A study of Homo sapiens with 6 samples.

Results

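The nucleoside salvage and nucleoside transport group holds 10 genes, namely TK1, TK2, DCK, ADK, APRT, HPRT1, SLC29A1, SLC29A2, TYMP and UPP1, of 19775 genes that have a probe set of their own on the array. Members were chosen by gene name, and every probe set annotated to one of them alone was taken, which gave 23 of 54613 probe sets. They were measured with Affymetrix HG U133 Plus arrays in RNA from HT29, a line of human colon adenocarcinoma cells. The comparison was between 3 samples of cells that resist 10 μM methotrexate (MTX), selected by stepwise exposure to the drug, and 3 samples of sensitive cells. Resistant cells were kept in selective medium with dialyzed serum and with neither glycine, hypoxanthine nor thymidine, and sensitive cells in Ham's F12 with fetal bovine serum. Medium and resistance thus differed together and cannot be told apart. The samples are called triplicates, with no word on separate cultures, so the p-values measure only how far these samples spread, and that spread may be technical.

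MTX is an antifolate that starves cells of the folate cofactors needed to make thymidylate and purines. Salvage is the other route to these nucleotides. Nucleosides enter through equilibrative transporters of the plasma membrane, kinases phosphorylate them, and phosphoribosyltransferases turn free purine bases into nucleotides. Cells supplied with both hypoxanthine and thymidine can therefore grow under an antifolate if they carry HPRT1 and TK1, a principle long used to select hybrid cells. Phosphorylases work the other way and split nucleosides into a base and a sugar phosphate.

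Signals were scaled to the array median, which thus has the value 1, and signals of different probe sets cannot be set against each other. The 26833 probe sets whose scaled signal averaged 1 or more were tested with limma on log2 values, and a call is a Benjamini-Hochberg adjusted p under 0.05. Of the 23 member probe sets 17 passed this filter, and they cover 9 genes, all but TYMP. Resistant arrays had median signals of 13.3 to 16.9 and sensitive arrays of 14.2 to 15.4. The ratio of 3' to 5' signal for ACTB, a measure of RNA integrity, was 1.17 to 1.30 in resistant and 1.12 to 1.17 in sensitive arrays; its part in the results was not tested. Epithelial keratins and EPCAM were bright in every array, and 9 of 11 colon epithelial markers passed the filter. Of these 9, CDH17 at 0.48 to 2.91 and CEACAM5 at 1.58 to 4.58 lay near the array median. The intestinal factors CDX1 and CDX2 were dim throughout (highest scaled signals 0.656 and 0.580). Among the 9 tested, 6 were called lower and 1 higher, where 22.5% and 12.4% of all tested genes were lower and higher. The summed scaled signal of the 11 was 1598 to 1797 in resistant and 2061 to 2272 in sensitive arrays, and its part in the results was not tested. Of 10 markers of blood, vessel, stroma and liver cells 3 passed, with a summed scaled signal of 6.89 to 8.72 in resistant and 6.79 to 9.40 in sensitive arrays. These were CD14, PECAM1 and HBB. The monocyte marker CD14, at 0.0902 to 0.793 in resistant and 1.56 to 3.05 in sensitive cells, was called lower. It passed the filter only through the sensitive cells, so its size of change has no firm value. The endothelial marker PECAM1, at 1.70 to 2.25 in resistant and 1.02 to 1.54 in sensitive cells, was not called. HBB overlapped between the groups. The part of these 3 markers in the results was not tested. Median division left the median tested gene at a log2 fold change of -0.10, resistant over sensitive, whereas quantile normalization put it at 0.02, so changes of the called members are also given relative to that median.

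The purine base enzyme HPRT1, the cytosolic nucleoside kinases DCK and TK1 and the transporter SLC29A1 were lower in the resistant cells. Of the 17 tested probe sets 5 were called lower and 1 higher, where 29% of all tested probe sets were called, 19.5% lower and 9.52% higher. At 1 probe set per gene, the brightest, 4 of 9 tested genes were lower and none was higher, where 34.9% of 11835 tested genes were called, 22.5% lower and 12.4% higher. The arrays of the 2 groups did not overlap for the same 4 genes, as for 46.2% of all tested genes. In limma without adjustment the count higher was 0 as well, since no other member gene had a 95% interval that left out 0. The forms of the methods' t-test with equal and unequal variances also gave 0, but they called only 574 and 76 of all genes higher, so this is no support. Both forms were run on the log2 values and with the filter used here. They lack the authors' own filter and fold threshold and do not repeat their analysis. The 9 genes had a median of -0.30 on the log2 scale, which is -0.20 from that of all tested genes. That median is the value of ADK at 204119_s_at, which was not called, and the other ADK probe set was called higher, at 0.51. With all probe sets of a gene averaged ADK was at 0.11, so this median sets no firm shift of the group.

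**Figure D1:**
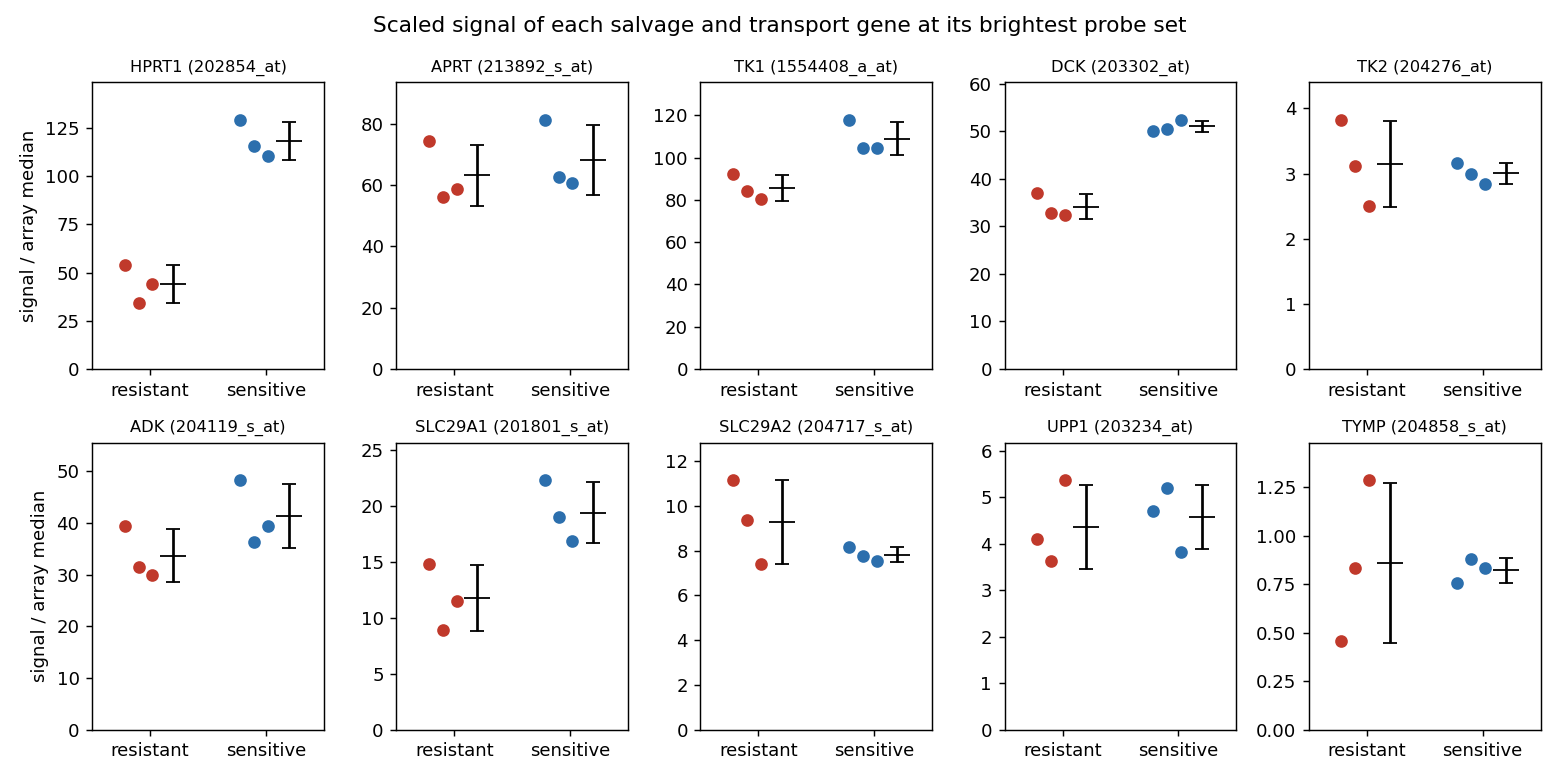
Scaled signal (signal divided by the array median, linear axis from 0) of each gene at its brightest probe set, with 1 point per array for resistant (red) and sensitive (blue) cells and a bar for the mean ± SD of 3 arrays. Resistant and sensitive arrays do not overlap for HPRT1, TK1, DCK and SLC29A1, and they overlap for the other 6 genes.

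HPRT1, which adds phosphoribose to hypoxanthine and guanine, had the largest change of the group. At probe set 202854_at its scaled signals were 53.9, 34.0 and 44.3 in resistant cells, against 129, 116 and 110 in sensitive cells. The groups lay far apart, with every resistant array under every sensitive array. The means were 44.1 ± 9.92 in resistant and 118 ± 9.77 in sensitive cells (SD, n = 3 each). On the log2 scale the fold change was -1.45 ± 0.15 (standard error, adjusted p = 1.2e-07 from limma), or -1.35 from the median gene. This call was lost in the unequal-variance form of the methods' t-test (adjusted p = 0.11) and in no other of 18 alternatives. Only 2.57% of tested genes had a lower log2 fold change. A second HPRT1 probe set, 1565446_at, was dim in all 6 arrays, with scaled signals of 0.0150 to 0.206 in resistant and 0.0130 to 0.153 in sensitive cells, and was not tested.

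APRT does for adenine what HPRT1 does for hypoxanthine, and it was not called. At 213892_s_at its scaled signals were 74.5, 56.0 and 58.8 in resistant cells and 81.3, 62.5 and 60.8 in sensitive cells, so the groups overlapped. Its log2 fold change was -0.11 (95% interval -0.41 to 0.19, adjusted p = 0.61 from limma). At its other probe set, 203219_s_at, the value was 0.01 (95% interval -0.32 to 0.34). Within each array, the log2 ratio of HPRT1 to APRT, which dividing an array by a constant cannot change, was -1.27, -1.53 and -1.21 in resistant cells, with the sensitive mean set to 0 and sensitive arrays at -0.14, 0.08 and 0.06. The groups differed by -1.34 (two-sided p = 0.1 by an exact permutation, and 3 against 3 arrays allow none smaller). This ratio and 4 others were chosen after the values had been seen, and p adjusted over the 5 pairs was 0.125 for the 4 pairs whose groups did not overlap.

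Both HPRT1 and APRT have GC-rich upstream sequence with no TATAAA, and they are printed here together because the 2 enzymes share a function, and HPRT1 was called and APRT was not. The 250 bases before the RefSeq start (GRCh38.p14) lie at chrX:134459915-134460164 on the plus strand for HPRT1 and at chr16:88811929-88812178 on the minus strand for APRT. Capitals mark GGGCGG, the GC box, in either orientation, which occurs 4 times for HPRT1 and 3 times for APRT and in 42.6% of 35116 RefSeq promoters of this length.
HPRT1: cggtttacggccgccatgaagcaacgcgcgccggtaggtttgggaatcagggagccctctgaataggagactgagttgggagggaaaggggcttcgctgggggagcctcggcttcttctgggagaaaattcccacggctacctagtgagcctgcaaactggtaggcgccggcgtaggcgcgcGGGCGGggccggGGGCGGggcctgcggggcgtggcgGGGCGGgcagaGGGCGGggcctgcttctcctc
APRT: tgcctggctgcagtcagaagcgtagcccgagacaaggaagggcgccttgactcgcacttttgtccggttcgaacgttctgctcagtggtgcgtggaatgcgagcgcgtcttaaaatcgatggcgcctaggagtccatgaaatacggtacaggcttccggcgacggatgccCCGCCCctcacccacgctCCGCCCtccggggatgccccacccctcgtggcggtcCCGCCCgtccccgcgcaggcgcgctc
Of the 10 genes 9 were found in that promoter table.

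HPRT1 lies on X, and genes beside it were lower too. Among the 5 nearest tested genes on each side in RefSeq order, 7 of 10 were lower and none was higher, where 22.5% of all tested genes were lower. Going away from HPRT1 on the side before it, the log2 fold changes were -0.71 for PHF6, a chromatin protein, -0.81 for GPC3, -1.28 for MBNL3, a splicing factor, and -1.23 for RAP2C, a small GTPase. On the side after it they were -1.20 for PABIR2, -0.14 for PABIR3, -1.25 for MOSPD1, -0.55 for RTL8C and -1.44 for RTL8A. GPC4, a cell surface proteoglycan between GPC3 and MBNL3, passed the filter only through the sensitive cells, with scaled signals of 0.992, 0.444 and 0.864 in resistant cells, against 9.33, 9.73 and 10.4 in sensitive cells. It is among the 7 called, but its size of change has no firm value. GPC3, PABIR3 and RTL8C, all with a scaled signal of at most 2.16, did not pass the test. GPC3, too, had a resistant mean under the filter, and its size of change is no firmer than that of GPC4. The count of 7 includes GPC4, and the median given next includes both genes. The median of the 10 was -1.21, against -1.45 for HPRT1 (standard error 0.14 in the fit of genes). For the other 8 tested members the medians of 10 neighbours lay between -0.47 for UPP1 and 0.22 for SLC29A2. PABIR2 had scaled signals of 40.6, 32.2 and 42.2 in resistant cells, against 83.2, 88.9 and 89.6 in sensitive cells, with no overlap.

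**Figure D2:**
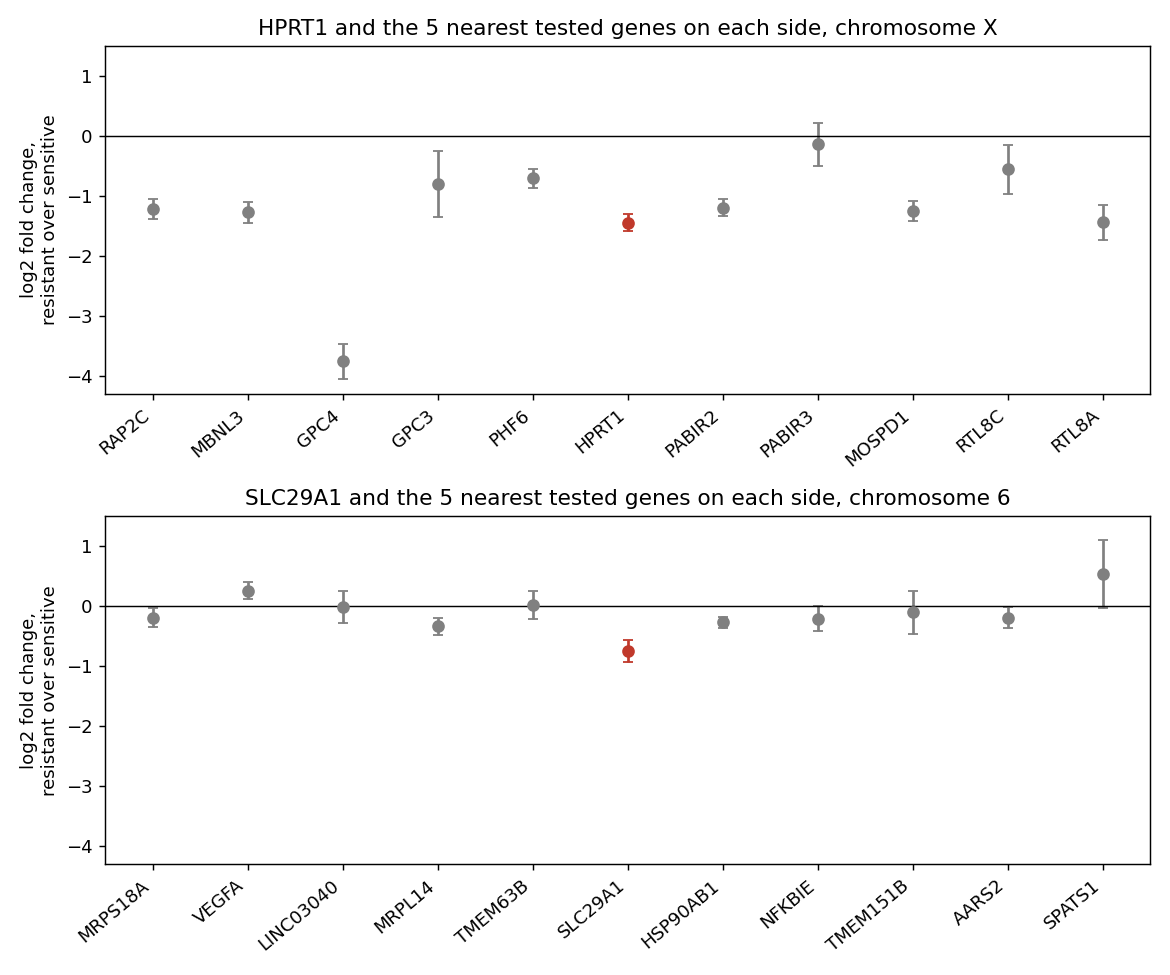
Log2 fold change (resistant over sensitive, bars for the standard error from limma, 3 arrays each) of HPRT1 and of SLC29A1, in red, with the 5 nearest tested genes on each side in grey, in map order. All 10 neighbours of HPRT1 lie under 0, as do at least 57.8% of all tested genes, and 7 of the 10 passed the test. GPC4, among the 7, and GPC3, not called, had resistant means under the filter, and their sizes are not firm. The neighbours of SLC29A1 lie between -0.34 and 0.54.

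Among the kinases, TK1 and DCK fell and TK2 was not called. TK1 is the cytosolic thymidine kinase, whose level peaks in S phase. At 1554408_a_at it had scaled signals of 92.2, 84.0 and 80.6 in resistant cells, against 118, 105 and 104 in sensitive cells. At 202338_at the signals were 61.2, 52.0 and 46.3 in resistant and 68.6, 71.9 and 71.1 in sensitive cells. The groups did not overlap at either probe set, as at 42.3% of all tested probe sets, and the log2 fold changes were -0.35 (standard error 0.11, adjusted p = 0.026 from limma) and -0.42 (standard error 0.13, adjusted p = 0.020 from limma). The first lay -0.25 from the median gene. After quantile normalization the values were -0.17 and -0.23, neither called (adjusted p = 0.088 and 0.081 from limma). The first call was also lost without resistant replicate 3 (-0.31) and without sensitive replicate 1 (-0.29), 2 (-0.38) or 3 (-0.38), and with no filter (adjusted p = 0.063 from limma). The second was lost without resistant replicate 3 (-0.32) and without sensitive replicate 2 (-0.40) or 3 (-0.41). Both were lost in limma without a trend (adjusted p = 0.12 and 0.10) and in both forms of the methods' t-test (adjusted p of 0.077 to 0.22).

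DCK, which phosphorylates deoxycytidine and activates nucleoside drugs such as cytarabine, was also lower. Its single probe set, 203302_at, read 37.1, 32.9 and 32.4 in resistant cells, against 50.1, 50.5 and 52.4 in sensitive cells. The means were 34.1 ± 2.55 in resistant and 51.0 ± 1.24 in sensitive cells (SD, n = 3 each). The fold change was -0.58 ± 0.13 on the log2 scale (standard error, adjusted p = 0.0023 from limma), or -0.48 from the median gene, and it was -0.39 after quantile normalization, still called. At 0.668 of the sensitive level it just missed a 1.5-fold change, and the unequal-variance form of the methods' t-test ended the call (adjusted p = 0.095).

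TK2 and DCK belong to one kinase family, and TK2 works in mitochondria. Its 3 tested probe sets had log2 fold changes of 0.05 (95% interval -0.43 to 0.52), 0.11 (95% interval -0.41 to 0.62) and 0.19 (95% interval -0.55 to 0.93), and resistant and sensitive arrays overlapped at each. At the brightest, 204276_at, the signals were 3.83, 3.11 and 2.50 in resistant and 3.17, 3.00 and 2.84 in sensitive cells. Its remaining probe set, 240300_at, was dim, at 0.0947 to 0.977 in resistant and 0.110 to 0.514 in sensitive cells. Within arrays the log2 ratio of TK1 to TK2 differed by -0.39, with resistant arrays at -0.59, -0.43 and -0.17 and sensitive arrays at 0.04, -0.06 and 0.02 (two-sided p = 0.1 by exact permutation). Quantile normalization, unlike division by a constant, can change such a ratio, and after it TK1 was at -0.17 and TK2 at 0.10.

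The 2 probe sets of ADK, the kinase that turns adenosine into AMP, did not go together. At 204119_s_at the scaled signals were 39.5, 31.6 and 29.9 in resistant and 48.3, 36.3 and 39.5 in sensitive cells, which overlap, and the log2 fold change of -0.30 was not called (adjusted p = 0.15 from limma). At 204120_s_at they were 8.61, 6.56 and 8.31 in resistant cells, against 5.64, 5.72 and 5.03 in sensitive cells. These did not overlap, and the log2 fold change was 0.51 (standard error 0.18, adjusted p = 0.039 from limma). The ratio of the dimmer to the brighter probe set within each array was 0.71, 0.64 and 1.06 on the log2 scale in resistant cells, with the sensitive mean set to 0 and sensitive arrays at -0.18, 0.25 and -0.06 (two-sided p = 0.1 by exact permutation). The annotation used here does not say which transcript of ADK each probe set reads, and no direction is given for the gene. The rise at 204120_s_at was lost without resistant replicate 1 (adjusted p = 0.078) or 3 (adjusted p = 0.10) and without each sensitive replicate (adjusted p of up to 0.14 from limma), and also with no filter (adjusted p = 0.084), without a trend (adjusted p = 0.068) and in the methods' t-test (adjusted p = 0.095 and 0.17). Without resistant replicate 1, 204119_s_at was called lower, at -0.42 (adjusted p = 0.031 from limma). Within arrays DCK over ADK, the last of the 5 pairs, differed by -0.28 with overlap (two-sided p = 0.3 by exact permutation).

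The upstream sequences of TK1 and DCK are shown because both kinases were lower and are tied to DNA synthesis. They are 250 bases at chr17:78187053-78187302 on the minus strand for TK1, the more downstream of its 2 RefSeq starts, and at chr4:70993399-70993648 on the plus strand for DCK. Capitals mark 3 motifs in either orientation. They are the GC box GGGCGG, the CCAAT box, and the letters TTCCCGC, a core of E2F sites. TK1 holds 2 GC boxes, 2 CCAAT boxes and 1 TTCCCGC, and DCK holds 3 GC boxes, no CCAAT and 2 TTCCCGC.
TK1: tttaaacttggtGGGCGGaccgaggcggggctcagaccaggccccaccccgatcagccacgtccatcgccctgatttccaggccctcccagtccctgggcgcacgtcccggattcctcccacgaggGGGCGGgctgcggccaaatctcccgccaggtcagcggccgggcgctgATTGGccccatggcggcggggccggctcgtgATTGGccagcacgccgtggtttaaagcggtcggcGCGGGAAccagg
DCK: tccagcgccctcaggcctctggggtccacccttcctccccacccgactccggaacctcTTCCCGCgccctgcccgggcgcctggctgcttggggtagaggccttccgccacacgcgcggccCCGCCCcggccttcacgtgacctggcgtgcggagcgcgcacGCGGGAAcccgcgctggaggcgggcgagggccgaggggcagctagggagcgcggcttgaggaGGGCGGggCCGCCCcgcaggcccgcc
Of all RefSeq promoters of this length 32.0% hold CCAAT and 5.52% hold TTCCCGC. No marked match overlaps another in these windows, and neither window holds TATAAA, found in 10.7% of all. The window of the other TK1 start, chr17:78187205-78187454, which overlaps the one printed, holds 2 GC boxes and 1 TATAAA, with no CCAAT and no TTCCCGC, so the motifs found depend on the start taken. A match is a run of letters and no measured site.

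**Figure D3:**
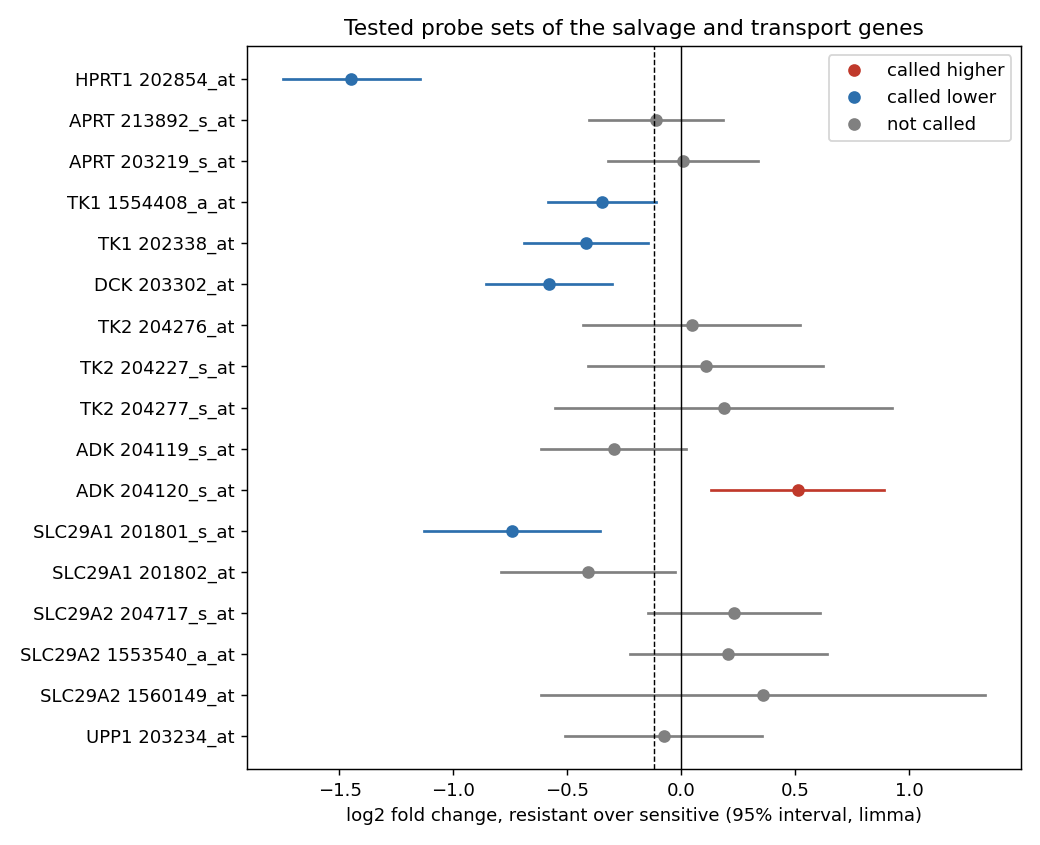
Log2 fold change (resistant over sensitive, 95% interval from limma, 3 arrays each) of the 17 tested probe sets, with a solid line at 0 and a dashed line at -0.12, the median of all tested probe sets. HPRT1 stands furthest from 0 at -1.45, the 2 probe sets of ADK lie on opposite sides of 0, and every interval of TK2, SLC29A2, APRT and UPP1 crosses 0.

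Of the 2 equilibrative nucleoside transporters, SLC29A1 was lower and SLC29A2 was not called. SLC29A1 (ENT1) carries purine and pyrimidine nucleosides across the plasma membrane and is blocked by dipyridamole. At 201801_s_at its scaled signals were 14.8, 8.95 and 11.5 in resistant cells, against 22.3, 19.0 and 16.9 in sensitive cells. The groups did not overlap, and on the log2 scale the change was -0.74 ± 0.19 (standard error, adjusted p = 0.0044 from limma), or -0.64 from the median gene. Its other probe set, 201802_at, read 5.74, 4.81 and 5.67 in resistant and 8.35, 6.61 and 6.68 in sensitive cells, again with no overlap, but at -0.41 it was not called (adjusted p = 0.099 from limma). The call at 201801_s_at was lost in limma without a trend (adjusted p = 0.056) and in both forms of the methods' t-test (adjusted p = 0.13 and 0.19). The neighbours of SLC29A1 on chromosome 6 had a median of -0.15. Of these 10, 1 was called, the cytosolic chaperone HSP90AB1, lower at -0.27, where 34.9% of all tested genes were called and 22.5% were lower.

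SLC29A2 (ENT2), which also takes up nucleobases such as hypoxanthine, was not called at any of 3 tested probe sets. At the brightest, 204717_s_at, the signals were 11.1, 9.36 and 7.38 in resistant and 8.18, 7.74 and 7.52 in sensitive cells, with 2 resistant arrays above and 1 below all sensitive arrays. The log2 fold changes of the 3 were 0.23 (95% interval -0.15 to 0.61), 0.21 (95% interval -0.23 to 0.64) and 0.36 (95% interval -0.61 to 1.33). Its 2 other probe sets were dim, at 0.0602 to 0.932 in resistant and 0.149 to 0.733 in sensitive cells. The log2 ratio of SLC29A1 to SLC29A2 within arrays was -0.89, -1.37 and -0.67 in resistant cells, against 0.14, -0.01 and -0.14 in sensitive cells around a mean set to 0, a difference of -0.97 (two-sided p = 0.1 by exact permutation).

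**Figure D4:**
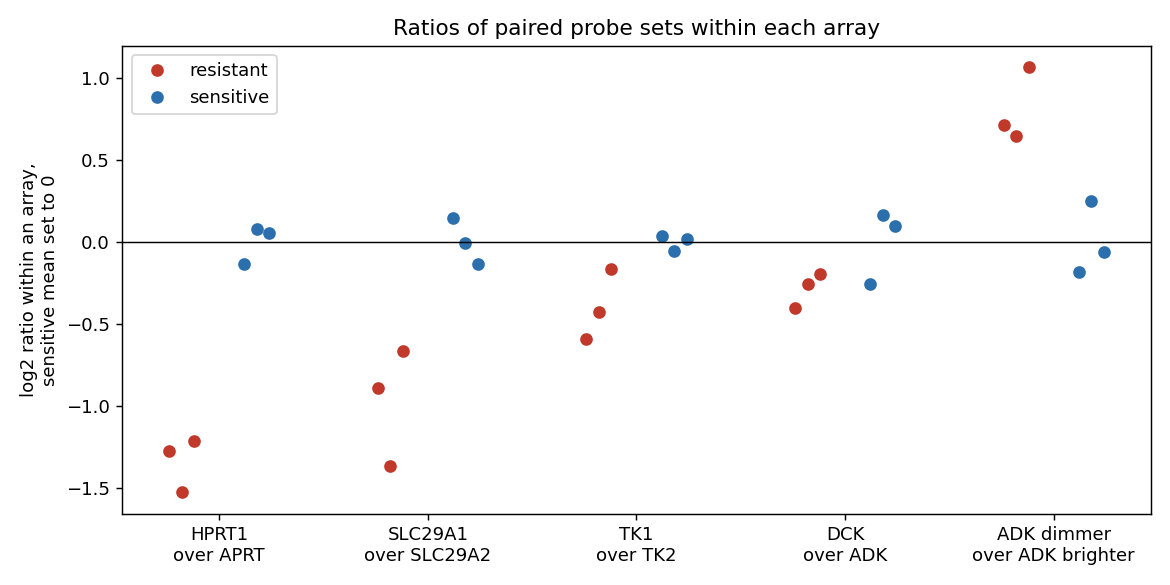
Log2 ratio of paired probe sets within each array, centred on the mean of the 3 sensitive arrays, for resistant (red) and sensitive (blue) arrays. Resistant arrays lie under all sensitive arrays for HPRT1 over APRT, SLC29A1 over SLC29A2 and TK1 over TK2, above them for the dimmer over the brighter ADK probe set, and overlap them for DCK over ADK.

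SLC29A1 is shown with 250 bases at chr6:44223345-44223594 on the plus strand, before the more downstream of its 2 RefSeq starts, since it is the transporter that was called. GC boxes are in capitals, and there are 3, with no CCAAT and no TATAAA. The window of its other start holds 2 GC boxes and again neither of the others.
SLC29A1: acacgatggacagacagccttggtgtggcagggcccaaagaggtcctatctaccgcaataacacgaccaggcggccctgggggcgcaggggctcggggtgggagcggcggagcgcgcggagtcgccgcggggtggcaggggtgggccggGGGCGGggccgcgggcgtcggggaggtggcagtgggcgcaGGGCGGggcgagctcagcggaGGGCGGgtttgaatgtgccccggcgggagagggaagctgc

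Neither phosphorylase of the group was called. UPP1, which splits uridine, had signals of 4.11, 3.62 and 5.36 in resistant and 4.71, 5.19 and 3.82 in sensitive cells at 203234_at, its single probe set, and a log2 fold change of -0.08 (95% interval -0.51 to 0.36, adjusted p = 0.82 from limma). TYMP, thymidine phosphorylase, was under or near the array median. At 204858_s_at its signals were 0.459, 0.831 and 1.28 in resistant and 0.754, 0.880 and 0.831 in sensitive cells, and at 217497_at 0.632, 0.738 and 0.107 in resistant and 0.613, 0.807 and 0.636 in sensitive cells. The groups overlapped at both, and no test was made. TYMP is known as an interferon-induced gene in other cells. Of 24 tested interferon-induced genes 22 were lower in the resistant cells, where 22.5% of all tested genes were lower, and GBP2 at 0.10 and WARS1 at -0.18 were not called. Of the 22 lower genes 9 had a resistant mean under the filter and passed it only through the sensitive cells, which leaves 13 lower of 15. The 9 include IFI27, BST2 and PSMB9, which lay at 0.0752 to 0.663 in resistant cells, against 14.6 to 258 in sensitive cells, and no fold change is given for them.

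Around the 10 genes, the wider pathway of nucleoside and nucleotide handling held calls in both directions. Of 46 other genes listed, 43 had a probe set of their own and 36 were tested, of which 3 were higher, 12 were lower and 21 did not pass, and 12.4% and 22.5% of all tested genes were higher and lower. CMPK2 passed the filter only through the sensitive cells, which leaves 11 lower of 35. After quantile normalization 6 were higher and 12 lower. At the median they changed by -0.17 on the log2 scale, which is -0.08 from all tested genes. The 3 tested salvage kinases of the list, DGUOK, UCK1 and UCKL1, and all 5 tested nucleotidases were not called. Of the 2 tested phosphoribosyltransferases of the list, UPRT was higher at 0.54 with no overlap (adjusted p = 0.019 from limma). The other, NAMPT, was at -0.16 and was not called. Both tested phosphorylases were lower, namely PNP at -0.47, which splits inosine and guanosine, and MTAP, which recovers adenine from methylthioadenosine. MTAP had scaled signals of 14.5, 10.3 and 17.1 in resistant cells, against 41.4, 39.4 and 36.7 in sensitive cells, a log2 fold change of -1.51 (adjusted p = 3.1e-09 from limma).
Of 3 tested transporters outside the group 1 was called, the concentrative SLC28A3, with signals of 1.31, 1.81 and 2.13 in resistant cells, against 5.05, 6.65 and 7.25 in sensitive cells and a log2 fold change of -1.87. Its relatives SLC28A1 and SLC28A2 were too dim to test. SLC29A3 at 0.52 and SLC29A4 at 1.08 did not pass (adjusted p = 0.076 and 0.061 from limma). Of the nucleotide kinases 4 of 11 tested were lower, with AK4 at -1.37 and AK1 at -1.03. Only 1 was higher, GUK1, at 0.73 with no overlap (adjusted p = 2.4e-05 from limma). CMPK2, a mitochondrial kinase also known as an interferon-induced gene, had signals of 1.10, 1.02 and 0.716 in resistant cells, against 16.4, 16.9 and 14.7 in sensitive cells. Its resistant mean was under the filter, and its size of change depends on the treatment of low signals, at -4.10 on the log2 scale as analysed and -3.13 with a pseudocount of 1. SAMHD1, a dNTP hydrolase that is interferon-induced as well, was at 5.15, 4.41 and 4.27 in resistant cells, against 27.2, 25.1 and 32.7 in sensitive cells, a log2 fold change of -2.62. DPYD, the first enzyme of pyrimidine breakdown, was at -1.02.
CDA, which deaminates cytidine and deoxycytidine, was the largest rise of the list. It had signals of 8.09, 4.34 and 3.73 in resistant cells, against 2.44, 2.55 and 1.69 in sensitive cells, with no overlap. Its log2 fold change was 1.21 (standard error 0.26, adjusted p = 0.00035 from limma), and both forms of the methods' t-test ended the call (adjusted p = 0.12 and 0.17). The same tests ended that of DPYD (adjusted p = 0.11 and 0.20). The unequal-variance form ended those of CMPK2 (adjusted p = 0.051), SLC28A3 (adjusted p = 0.064), MTAP (adjusted p = 0.11) and AK1 (adjusted p = 0.11). These genes are given at their brightest probe set. With all probe sets of a gene averaged, the change was smaller for SLC28A3 (-1.25), MTAP (-1.09), AK4 (-1.11) and DPYD (-0.87). It was larger for AK1 (-1.27) and SAMHD1 (-2.73).

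TK1 is known to rise in cells that make DNA, and genes of cell division are given beside it. Of 28 tested genes 16 were lower and none was higher, where 22.5% of all tested genes were lower, with a median of -0.40 on the log2 scale, -0.30 from that of all tested genes, beside -0.35 for TK1. The deepest were CCNE2, a cyclin of the entry into S phase, at -1.43, GINS1 of the replicative helicase at -1.35 and the mitotic kinase PLK1 at -0.85. MKI67, a general marker of cycling cells, was at -0.06 and was not called (adjusted p = 0.80 from limma). These counts and this median hold for division by the array median only, as the list was not run after quantile normalization. There TK1 was at -0.17 and was not called. The part of the scaling in the change of the list was not tested, nor was that of cell division in the level of TK1.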

How the data were processed

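The 3 resistant and 3 sensitive samples carry their groups in the submitters' labels. Values deposited by the authors are MAS5 signals, an intensity on a linear scale for each probe set of an array. No MAS5 version is given in the sources used here. The GeneSpring GX 7.3.1 steps of the methods come after these values. They were not repeated in full here, and the methods' t-test means a plain t-test on the filtered log2 values described below. Control probe sets (62) were left out. A platform annotation gave 41091 probe sets 1 gene, and 41037 of them were matched to RefSeq (GRCh38.p14) for current symbols and gene order. As no build is named for the values, coordinates are given only for RefSeq promoter sequences.

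After division by the array median, 0.01 served as the lowest value, and limma 3.58.1 in R 4.3.3 (lmFit, then eBayes with trend) compared resistant with sensitive arrays on the log2 scale. Members' statistics come from the fit of 26833 probe sets, while lists, neighbours and changes relative to the median gene come from the fit of 11835 genes, each at its brightest probe set. Figures were drawn with matplotlib 3.10.9. The fit was tested on simulated data.

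Members and lists were chosen with earlier results of these data known. Named genes are all 10 members and the up to 8 called pathway genes of largest change without overlap between groups. The neighbours of called members that changed at least 1.5-fold and up to 3 genes of the cell division and interferon lists are named too. PNP, UPRT, NAMPT, GUK1, MKI67, DGUOK, UCK1, UCKL1, SLC29A3, SLC29A4, GBP2, WARS1, CD14, PECAM1, CDH17 and CEACAM5 were added after their values were seen. Alternatives covered scaling, low signals, the filter, the test, the replicate block, each array left out, a 1.5-fold threshold and the mean of all probe sets. Detection calls and scan dates were not used here. The number of arrays limits the precision.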

Additional observations from a re-analysis of the deposited data

How the results depend on the processing

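Directions of the 5 called HPRT1, DCK, TK1 and SLC29A1 probe sets held under other scalings, with a pseudocount and with each array left out. No call turned round there. The remaining alternatives for single probe sets, such as the filter, the test, the block and the threshold, left these fold changes as they were. They could not turn a direction. HPRT1 lay between -1.61 and -1.27, DCK between -0.64 and -0.39, SLC29A1 between -0.93 and -0.56 and TK1 between -0.40 and -0.17 (first probe set). Member probe sets called lower, 5 in the analysis as reported, numbered 3 after quantile normalization, 2 in limma without a trend, 2 and 0 in the methods' t-test with equal and unequal variances, and 2 with a 1.5-fold threshold. The 1 called higher became 0 with no filter, without a trend, in both forms of the t-test and with the threshold. Member genes called lower, 4 as reported, numbered 2 and 0 in the 2 forms of the t-test and 2 with the threshold.

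Other genes of the pathway called higher, 3 as reported, numbered 6 after quantile normalization, 5 when scaled to the median over filtered probe sets, 5 with probe sets averaged per gene and 0 in the t-test with unequal variances. Those called lower, 12 as reported, numbered 7 and 2 in the 2 forms of the t-test and 7 with the threshold. Over all probe sets, 2554 were higher and 5237 lower as reported, against 4189 and 4324 after quantile normalization, 3878 higher when scaled to the median over filtered probe sets, 3366 lower without a trend, 826 and 1879 with equal and 81 and 136 with unequal variances. Over all genes, 1472 were higher and 2659 lower as reported, against 2499 and 2230 after quantile normalization, 2291 higher when scaled to the median over filtered probe sets, 574 and 1123 with equal and 76 and 134 with unequal variances, and 1652 lower with the threshold. The cause of these shifts was not tested, except that the threshold only removes calls.

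With each array left out in turn, 3 to 6 member probe sets were lower (3 without resistant replicate 3 and without sensitive replicate 2 or 3) and 0 to 1 higher, 3 to 5 member genes lower and 0 higher, and 9 to 15 other pathway genes lower and 2 to 5 higher (5 without resistant replicate 3). Over all probe sets the ranges were 3774 to 6498 lower and 1917 to 2513 higher, and over all genes 1908 to 3570 lower and 1132 to 1525 higher. With the replicate number as a block, 6 member probe sets and 5 member genes were lower, since ADK 204119_s_at was then called (adjusted p = 0.046). Over all genes 3267 were then lower and 1775 higher. Deviations of same-numbered arrays correlated at 0.14, 0.01 and 0.08, and those of arrays with unlike numbers at -0.11 to 0.03. These values do not settle whether the numbers pair the samples, and the analysis as reported used no block. Signals under the array median, which include TYMP, set no firm level.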
